A study of Danio rerio with 6 samples.

Results

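The genes described here carry out mitosis and chromosome segregation, and they were followed in the adult zebrafish retina with and without samd7. They were taken by a list of gene names, which covered cdk1 and the B cyclins, the Aurora and Polo-like kinases, spindle checkpoint, centromere and kinetochore genes, condensins, mitotic kinesins, genes of anaphase and cytokinesis, and single genes such as setd8b and znf367. Such a name was borne by 65 of the 14781 deposited genes. The list was drawn up with earlier results of these data known, and gtse1, knstrn, ncapg2, cdca8, setd8b and znf367 had already been seen among the genes with large rises. All 6 are among the called genes counted here, so their calls are not independent of that choice. The genes incenp, espl1, tpx2, kntc1 and kif15 are not analysed here.

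RNA-seq was made from whole retinas of 3 wild-type fish and 3 fish homozygous for the stl888 allele of samd7 (samd7-/-), a gene for a photoreceptor protein that acts with Polycomb complexes. All were males of 3 months, and came from crosses between heterozygotes. Both retinas of 1 fish made 1 library, so replicates were separate animals, and every cell type of the retina contributed to each value. The labels name no other allele, transgene or treatment in either group. The question asked of these genes was whether their RNA differed between mutant and wild-type retinas.

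A cell enters mitosis when Cdk1 is activated by a B-type cyclin. Condensins then compact the chromosomes, kinetochores built on CENP proteins capture microtubules of the spindle, and the spindle checkpoint delays anaphase until every kinetochore is attached. The anaphase-promoting complex with Cdc20 then marks securin and B cyclins for destruction, sister chromatids separate, and cytokinesis divides the cell. In the adult fish retina, dividing cells are known at the ciliary margin and among Müller glia and the rod progenitors they give rise to, while photoreceptors and other neurons do not divide.

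Values are normalised read counts, in which the reads of a gene were divided by the size factor of the fish, and are listed in the order of replicates 1, 2 and 3 of each genotype. The libraries held between 20186266 and 29117026 reads in genes. The samd7 transcript stood at 4196, 4557 and 5186 in wild type and 2471, 5121 and 3642 in the mutants, overlapping, so its level gave no check of the genotype labels. Summed levels of rod and cone markers were high in all 6 libraries, at 516946 to 2870780 for 6 rod genes and 1230090 to 1449310 for 9 cone genes. Single cone genes differed between genotypes in both directions. Wild-type and mutant means were 188635 and 825 for arr3a, 156681 and 4206 for opn1lw2, and 165581 and 499547 for opn1sw1. The gene opn1mw1 was at 0 in every mutant. Log2 changes give the mutant mean minus the wild-type mean of log2(value + 1). A gene was called at a Benjamini-Hochberg adjusted p under 0.05 in limma, a linear model fitted here over the 11335 genes that reached 10 in 3 or more libraries. Of the 9 cone markers 4 were called lower and 1 higher, and of the 6 rod markers 1 was called lower and 0 higher. Over all genes tested, 1.78% were called lower and 0.829% higher.

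In each group of members sorted by mitotic role, from Cdk1 to cytokinesis, at least 1 gene was called higher in the mutant retinas, and most members of most groups were not called. The only call was knstrn for centromere and kinetochore, cdca8 for the chromosomal passenger complex and gtse1 for spindle assembly. Those genes had been seen rising before the list was drawn up, so a call in their groups was fixed beforehand. Of the 65 members 62 were tested, 20 were called higher and 0 lower. The 20 include all the genes seen beforehand. Over all genes tested, 0.829% were called higher and 1.78% lower. The 20 called genes had log2 changes between 0.91 for the microtubule bundler prc1a and 2.62 for the histone methyltransferase gene setd8b, or 1.89-fold to 6.48-fold between genotype means. Their wild-type means ran from 8.66 to 140.4 and their mutant means from 55.4 to 400. In whole-retina RNA, more cells of a dividing type and more of these transcripts per cell cannot be told apart.

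The median log2 change was 1.67 over the 62 tested members and 0.01 over all genes tested, and 58 members had a positive change. The rise was limited to members of lower level. The 7 with a wild-type mean of 200 or more had log2 changes from -0.39 to 0.24, and 0 were called. The 55 under that level were all positive, with a median of 1.78, and held the 20 calls. The reason for this split was not tested. In 41 members each mutant fish lay above each wild-type fish, which 13.3% of all tested genes did, and in 1 member each mutant lay below, which 14.8% did. At an unadjusted p under 0.05 in limma, 44 members were higher and 1 was lower, against 9.38% and 11.6% of all genes. Among the tested members 15 were under 10 in at least 1 wild-type fish, 4 of them called, and 2, kif14 and pttg1, were under 10 in all 3. Those genes passed the filter with the help of the mutants, so these counts describe the tested members and not the list as a whole. Without the filter 64 members could be fitted and 20 were called higher, with a median of 1.63.

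The number of calls depended on the tool and on single fish. The quasi-likelihood test of edgeR called 19 members higher and 0 lower, against 0.82% and 1.62% of all genes. DESeq2 called 40 higher and 0 lower, against 4.14% and 6.65%. At an adjusted p under 0.05, the authors' deposited table had 40 members higher and 0 lower, against 3.88% and 6.3% of all genes. Limma called 0 members when wild-type replicate 2, replicate 3 of wild type, or replicate 1 or 3 of the mutants was left out. Over all genes these fits called 6, 17, 8 and 4 higher. At an unadjusted p under 0.05, 42, 43, 37 and 37 of 62, 62, 60 and 60 tested members were higher. The share of all genes at that unadjusted p is not given here for these fits, so those counts have no baseline. In them adjusted p for the 20 genes ran from 0.0583 to 0.217. The calls of smc2, kif4, cdca5, prc1a, cdca7a and setd8b were also lost without wild-type replicate 1 (adjusted p up to 0.0723), and those of ncapg2, kif20a, prc1a, znf367 and setd8b without mutant replicate 2 (up to 0.0727). All 20 log2 changes were positive in each of the 16 fits made. In each of the 20 genes all mutants lay above all wild types. Leaving out 1 fish, or changing the pseudocount, trend or block, could therefore not turn their sign.

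**Figure D1:**
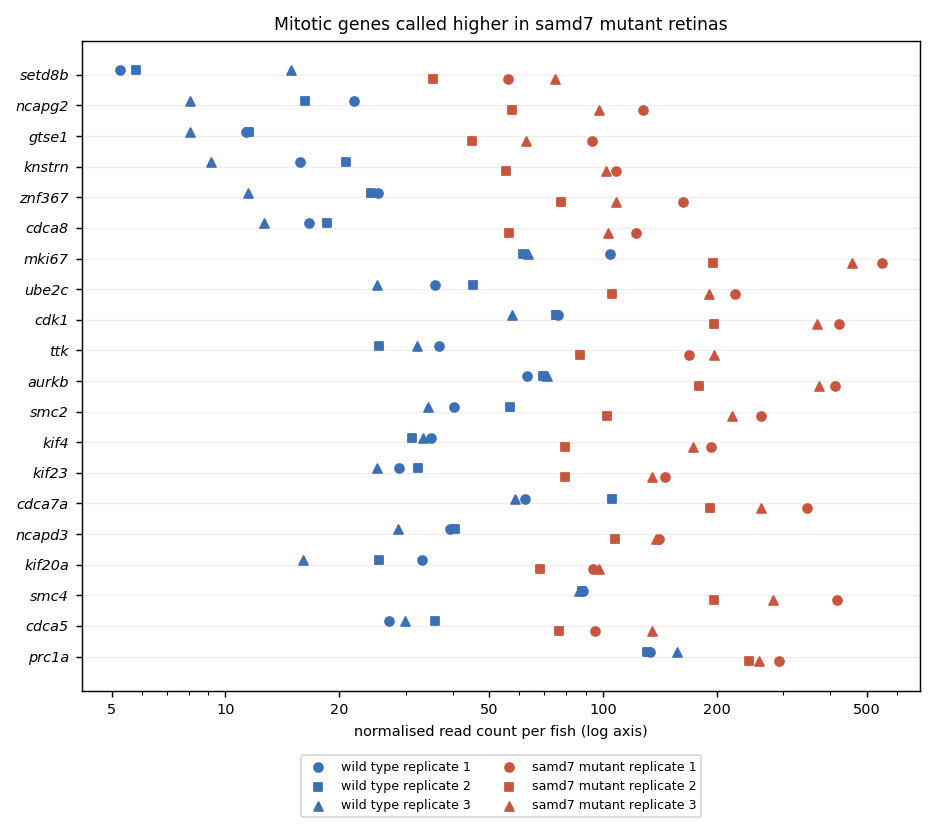
Normalised read count in each fish, on a log axis, for the 20 members called higher, ordered by log2 change from prc1a at the bottom to setd8b at the top. Blue symbols are wild-type fish and red symbols are mutants, with a marker shape per replicate; in each gene all 3 red symbols lie to the right of all 3 blue ones, and the red square of mutant replicate 2 is the leftmost red symbol.

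The kinase gene cdk1, whose product starts mitosis, was at 76.1, 75.3 and 57.4 in wild type and at 423, 197 and 368 in the mutants. Each mutant fish lay above every wild-type fish, and the gene rose 4.73-fold (log2 change 2.16 with SE 0.31, adjusted p = 0.0303). The B cyclins that activate it were less uniform. The gene ccnb1 was at 31.5, 34.8 and 47.1 in wild type and at 142, 38.7 and 99 in the mutants, with mutant replicate 2 inside the wild-type range (log2 change 1.11, adjusted p = 0.251; 95% interval -0.04 to 2.27). The gene ccnb2 was at 18.4, 22 and 9.19 in wild type and at 39.2, 22 and 57.5 in the mutants. Its mutant replicate 2 equalled wild-type replicate 2 within 1 normalised read count (log2 change 1.19, adjusted p = 0.231, 95% interval 0.02 to 2.36). Another B cyclin, ccnb3, stood at 421, 116 and 85 in wild type and at 199.8, 135 and 121 in the mutants. Wild-type replicate 1 was far above the other 5 fish, and the log2 change was -0.12 with it and 0.58 without it (adjusted p = 0.935 and 0.297).

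Of the Aurora and Polo-like kinases, only aurkb passed the test. It encodes the kinase of the chromosomal passenger complex, which corrects faulty attachments at centromeres, and was at 63, 69.5 and 71.2 in wild type and at 411, 180.0 and 374 in the mutants. The wild-type fish lay within a narrow band and all mutants lay above it (4.74-fold, log2 change 2.14 with SE 0.32, adjusted p = 0.0344). The gene plk1, for the Polo-like kinase of mitotic entry and exit, was at 91.9, 79.9 and 58.6 in wild type and at 382, 155 and 350.4 in the mutants, without overlap, and missed the threshold (log2 change 1.85, adjusted p = 0.0568; DESeq2 adjusted p = 3.87e-05). The centrosomal kinases differed less. The gene aurka, which acts at spindle poles, was at 28.9, 35.9 and 56.3 in wild type and at 85.9, 62.8 and 55.9 in the mutants and overlapped slightly (95% interval of the log2 change -0.01 to 1.56, adjusted p = 0.243). The centriole duplication kinase plk4 was at 63, 57.9 and 106 in wild type and at 119, 107 and 129 in the mutants. The lowest mutant was 1 normalised read count above the highest wild type (log2 change 0.68, adjusted p = 0.218). Whether the change of aurkb differed from that of aurka was not tested.

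The chromosomal passenger complex brings Aurora B to the centromere through borealin and survivin. Borealin, encoded by cdca8, was at 16.6, 18.5 and 12.6 in wild type and at 122, 56.5 and 103 in the mutants and rose 5.90-fold (log2 change 2.43 with SE 0.37, adjusted p = 0.0344). The survivin gene birc5a was at 8.75, 20.9 and 6.89 in wild type and at 32.7, 16.7 and 27.1 in the mutants, with 1 mutant among the wild-type fish (log2 change 1.11, adjusted p = 0.280; 95% interval -0.12 to 2.33). Its paralog birc5b was below 5 in every library and cdca9 below 10, and neither was tested.

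The spindle checkpoint genes fell into a pair with large changes and a trio with small ones. The checkpoint kinase gene ttk, which starts the signal at unattached kinetochores, was at 36.8, 25.5 and 32.2 in wild type and at 169, 86.8 and 197 in the mutants and rose 4.80-fold (log2 change 2.16 with SE 0.35, adjusted p = 0.0388). The gene mad2l1, whose product blocks Cdc20, was at 25.4, 47.5 and 17.2 in wild type and at 154, 87.9 and 130.3 in the mutants, without overlap, just short of the threshold (log2 change 2.09, adjusted p = 0.0537; DESeq2 adjusted p = 0.000119). The genotypes of the other three overlapped. The gene bub3, which recruits checkpoint proteins to kinetochores, was at 437, 458 and 541 in wild type and at 522, 489 and 584 in the mutants (95% interval of the log2 change -0.16 to 0.46, adjusted p = 0.551). The genes zw10 and zwilch encode subunits of the complex that brings dynein to kinetochores, and zw10 also acts in vesicle traffic of cells that do not divide. Their 95% intervals were -0.48 to 0.19 and -0.41 to 0.76, with zw10 at 517, 518 and 413 in wild type and at 431, 395 and 481 in the mutants. These intervals leave out the changes fitted for ttk and mad2l1.

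All 13 tested centromere and kinetochore genes had positive log2 changes, from 0.23 for cenpp to 2.81 for cenph, and 1 was called. This was knstrn, which helps to align chromosomes and to separate sister chromatids. It was at 15.8, 20.9 and 9.19 in wild type and at 108, 55.5 and 102 in the mutants, 5.79-fold higher in the mutants without overlap (log2 change 2.47 with SE 0.42, adjusted p = 0.0408). The outer kinetochore binds microtubules through a complex of 4 proteins, all of which were measured. Its genes ndc80, nuf2, spc24 and spc25 had log2 changes of 1.39, 1.42, 0.69 and 2.02, each without overlap of the genotypes, and adjusted p of 0.0545, 0.0968, 0.0981 and 0.0805. None of the 4 passed in limma or edgeR and all 4 passed in DESeq2. For example, ndc80 was at 36.8, 24.3 and 31 in wild type and at 82.1, 65.9 and 98.2 in the mutants, and spc25 at 11.4, 32.4 and 23 in wild type and at 124, 52.3 and 97.3 in the mutants.

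The inner kinetochore showed the widest range of changes. The gene cenph, of the constitutive centromere network, had the largest log2 change of any member but rested on few reads, with 16, 6 and 2 reads in wild type and 66, 38 and 62 in the mutants (log2 change 2.81 with SE 0.59, adjusted p = 0.0602). In the same network cenpl, cenpk and cenpo had log2 changes of 1.56, 1.09 and 1.21, each without overlap. These genes missed the threshold, with adjusted p of 0.0905, 0.166 and 0.194. The histone variant that marks centromeres, cenpa, was at 51.6, 33.6 and 62 in wild type and at 80.3, 51.3 and 67.7 in the mutants, and its genotypes overlapped (95% interval of the log2 change -0.30 to 1.20). Likewise cenpn, cenpp and, outside the inner kinetochore, the kinesin gene cenpe overlapped, with log2 changes of 0.64, 0.23 and 0.30 and adjusted p between 0.375 and 0.844.

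Condensins held 4 of the 20 calls among their 8 genes. Both shared core subunits, the ATPases smc2 and smc4, rose. The gene smc4 was at 88.4, 88 and 86.1 in wild type and at 415, 197 and 282 in the mutants, with wild-type fish almost level with one another (3.40-fold, log2 change 1.69 with SE 0.27, adjusted p = 0.0388). The gene smc2 was at 40.3, 56.8 and 34.5 in wild type and at 261, 103 and 219 in the mutants (4.43-fold, log2 change 2.05 with SE 0.39, adjusted p = 0.0496), the call nearest to the threshold with that of setd8b. Smc4 overlaps kpna4 in the RefSeq annotation, and kpna4 had a log2 change of -0.29, in the other direction.

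Condensin II, which acts in the nucleus from prophase, had 2 of its 3 specific subunits called. The gene ncapd3 was at 39.4, 40.5 and 28.7 in wild type and at 141, 108 and 138 in the mutants (3.56-fold, log2 change 1.81 with SE 0.24, adjusted p = 0.0244), and it was called in 12 of the 16 fits, more than any other member. The gene ncapg2 was at 21.9, 16.2 and 8.04 in wild type and at 128, 57.5 and 97.3 in the mutants (6.13-fold, log2 change 2.57 with SE 0.46, adjusted p = 0.0434). The third subunit gene, ncaph2, was between 14.9 and 28.2 in all fish (95% interval of the log2 change -0.48 to 1.15). Condensin I reaches chromosomes after the nuclear envelope breaks down. Its genes ncapd2, ncapg and ncaph had log2 changes of 1.06, 1.53 and 2.30, and none was called in limma (adjusted p = 0.1002, 0.235 and 0.0762). DESeq2 called ncapd2 and ncaph (adjusted p = 0.0116 and 0.00231), and so 2 of the 3 specific subunits in each condensin. The difference between the condensins was not tested.

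**Figure D2:**
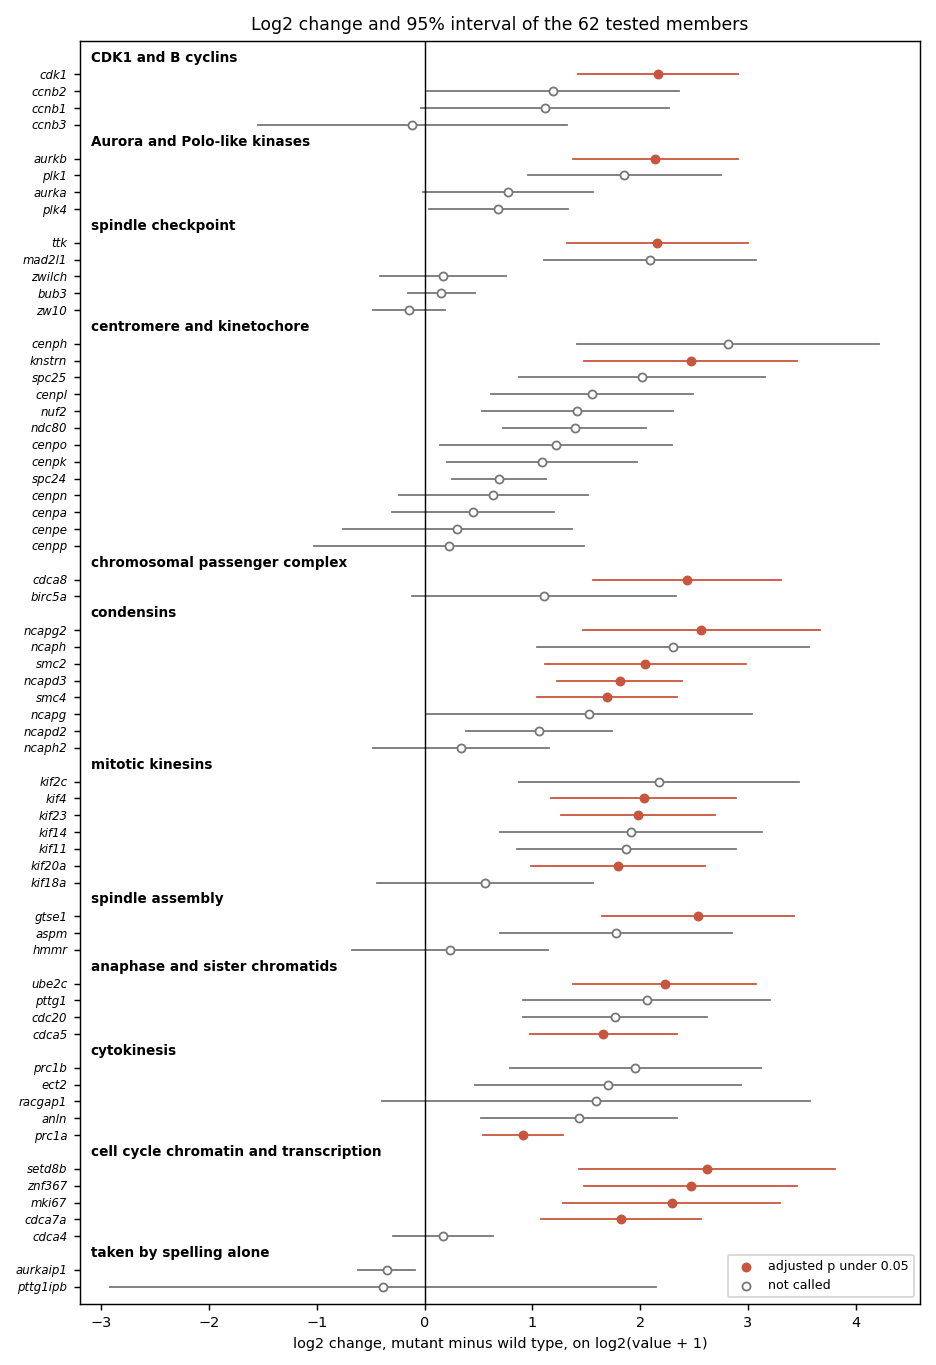
Log2 change of mutant against wild type with its 95% interval in limma for the 62 tested members, grouped by their role in mitosis. Red points are the 20 members at an adjusted p under 0.05 and open grey points were not called; apart from ccnb3, zw10, aurkaip1 and pttg1ipb all points lie to the right of 0.

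Mitotic kinesins move chromosomes and slide spindle microtubules, and 3 of the 7 tested were called. The gene kif23, for a subunit of the centralspindlin complex of the midzone, was at 28.9, 32.4 and 25.3 in wild type and at 146, 79.5 and 135 in the mutants (4.15-fold, log2 change 1.98 with SE 0.30, adjusted p = 0.0350). The chromokinesin kif4 was at 35, 31.3 and 33.3 in wild type and at 193, 79.5 and 173 in the mutants (4.48-fold, log2 change 2.03 with SE 0.36, adjusted p = 0.0426). The gene kif20a, needed for cytokinesis, was at 33.3, 25.5 and 16.1 in wild type and at 94.3, 68 and 97.3 in the mutants (3.47-fold, log2 change 1.79 with SE 0.34, adjusted p = 0.0478). In each of these kinesins all mutants were above all wild types. The gene cdc23 overlaps kif20a in the RefSeq annotation and had a log2 change of -0.15 (adjusted p = 0.677).

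The kinesin that separates spindle poles, kif11, was at 70.0, 78.8 and 74.7 in wild type and at 464, 138 and 323 in the mutants, without overlap but with a wide spread of the mutants, and missed the threshold (log2 change 1.87, adjusted p = 0.0749). The microtubule depolymerase kif2c and the cytokinesis motor kif14 had log2 changes of 2.18 and 1.92 without overlap (adjusted p = 0.0895 and 0.1004). The gene kif18a, which limits chromosome swings at metaphase, was at 24.5, 49.8 and 58.6 in wild type and at 85.9, 41.8 and 65.2 in the mutants, with overlap (log2 change 0.56, adjusted p = 0.499). The gene kifc1 was listed at 0 in all 6 libraries.

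Among spindle assembly genes, gtse1 rose. Its product binds microtubules and regulates p53, and the gene was at 11.4, 11.6 and 8.04 in wild type and at 93.3, 45 and 62.6 in the mutants (6.48-fold, log2 change 2.54 with SE 0.38, adjusted p = 0.0329). These came from 13, 10 and 7 reads in wild type and 100, 43 and 74 in the mutants. The spindle pole gene aspm was at 39.4, 18.5 and 19.5 in wild type and at 115, 49.2 and 111 in the mutants, without overlap (log2 change 1.78, adjusted p = 0.0923). The gene hmmr, for a hyaluronan receptor that also binds the spindle, was at 204, 224 and 402 in wild type and at 194, 346 and 446 in the mutants and overlapped fully (log2 change 0.24, adjusted p = 0.769; 95% interval -0.68 to 1.15).

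All 4 measured genes of anaphase and sister chromatids lay without overlap above wild type, and 2 were called. Over all tested genes 13.3% lay above without overlap and 0.829% were called higher. The ubiquitin-conjugating enzyme of the anaphase-promoting complex, ube2c, was at 35.9, 45.2 and 25.3 in wild type and at 223, 106 and 190.4 in the mutants (4.88-fold, log2 change 2.23 with SE 0.36, adjusted p = 0.0388). The gene cdca5 encodes sororin, which keeps sister chromatids together, and was at 27.1, 35.9 and 29.9 in wild type and at 95.2, 76.4 and 135 in the mutants (3.30-fold, log2 change 1.66 with SE 0.29, adjusted p = 0.0414). The activator cdc20 was at 56.9, 37.1 and 56.3 in wild type and at 260.4, 108 and 173 in the mutants and missed the threshold (log2 change 1.76, adjusted p = 0.0567). The securin gene pttg1 was at 4.38, 4.63 and 2.30 in wild type and at 14.9, 16.7 and 24.5 in the mutants, all from few reads (log2 change 2.06, adjusted p = 0.0772). It was under 10 in every wild-type fish and passed the filter only through the mutants.

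Of the cytokinesis genes prc1a was called, with the smallest log2 change of the 20. It bundles microtubules of the midzone and was at 133, 131 and 157 in wild type and at 293, 244 and 259 in the mutants, with little spread in either genotype (1.89-fold, log2 change 0.91 with SE 0.16, adjusted p = 0.0408). Its paralog prc1b started lower and spread more, at 17.5, 25.5 and 39.1 in wild type and at 162, 53.4 and 128 in the mutants (log2 change 1.96 with SE 0.49, adjusted p = 0.0881). Reads of such paralogs could be shared between copies, so the level of each is uncertain. The actin scaffold anln had a log2 change of 1.43 without overlap, and ect2, which activates RhoA at the division plane, 1.70 with 1 mutant just below the highest wild type (adjusted p = 0.1002 and 0.134). The ect2 partner racgap1 was at 20.1, 17.4 and 3.45 in wild type and at 65.3, 12.6 and 51.6 in the mutants, with mutant replicate 2 among the wild-type fish (log2 change 1.59, adjusted p = 0.333).

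The proliferation marker mki67, whose product coats mitotic chromosomes, was at 104, 61.4 and 63.2 in wild type and at 549, 196 and 455 in the mutants and rose 5.25-fold (log2 change 2.29 with SE 0.42, adjusted p = 0.0478). It had the highest mutant mean of the 20 called genes. The gene cdca7a, for a zinc finger protein of chromatin remodelling, was at 62.1, 105 and 58.6 in wild type and at 347, 191 and 262 in the mutants (3.54-fold, log2 change 1.82 with SE 0.31, adjusted p = 0.0408). The zinc finger gene znf367 was at 25.4, 24.3 and 11.5 in wild type and at 163, 77.4 and 108 in the mutants (5.70-fold, log2 change 2.47 with SE 0.42, adjusted p = 0.0408). The gene setd8b, now named kmt5ab, encodes an enzyme that methylates histone H4, and was at 5.25, 5.79 and 14.9 in wild type and at 56, 35.6 and 74.5 in the mutants (6.39-fold, log2 change 2.62 with SE 0.50, adjusted p = 0.0495). Its wild-type values came from 6, 5 and 13 reads, and its call was lost with edgeR (adjusted p = 0.0522). The gene cdca4, a regulator of transcription, overlapped between genotypes (log2 change 0.17, adjusted p = 0.667; 95% interval -0.29 to 0.63).

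Spelling alone brought in 2 genes that were not given a mitotic role here. The mitochondrial protein gene aurkaip1 was at 1084, 1083 and 1212 in wild type and at 908, 780.5 and 959.7 in the mutants, lower in each mutant than in each wild type, short of the threshold (log2 change -0.35 with SE 0.11, adjusted p = 0.143). It was the member with all mutants below. The gene pttg1ipb, for a membrane protein that binds securin in human cells, was at 139, 1354 and 941 in wild type and at 570.4, 139 and 998 in the mutants, as widely spread within a genotype as between them (log2 change -0.39, adjusted p = 0.868; 95% interval -2.92 to 2.15).

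The mutant fish differed among themselves in the same order for most members. Mutant replicate 2 was the lowest of the mutants in 54 of 62 tested members and in all 20 called ones, against 3734 of all 11335 tested genes. Mutant replicate 1 was the highest in 41 members and mutant replicate 3 in 19. Relative to each gene's mean over 6 fish, the log2 value of the median member was -0.81, -0.65 and -0.88 in the wild-type fish, and 1.21, 0.26 and 1.03 in the mutants. The lowest mutant was thus still above all wild-type fish at the median.

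**Figure D3:**
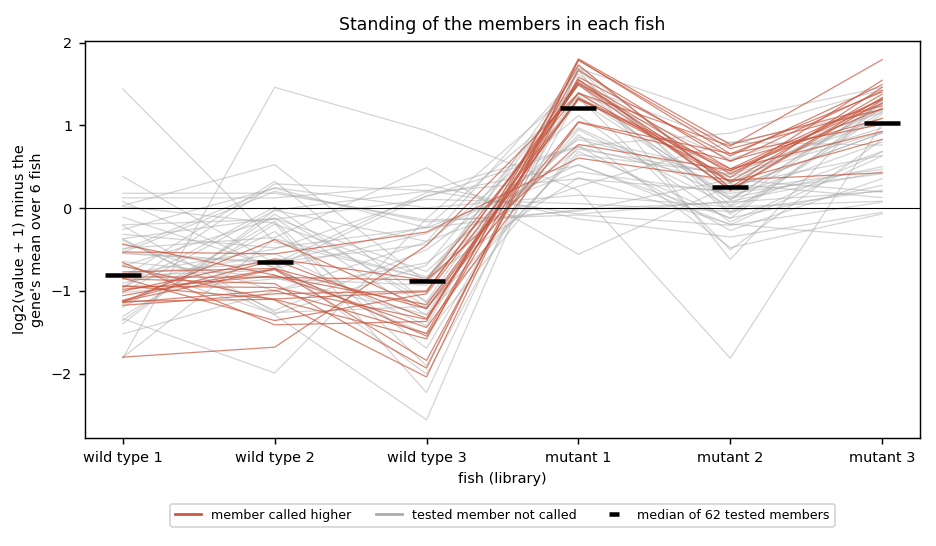
Log2(value + 1) minus the gene's mean over the 6 fish, for the 62 tested members; each line joins the values of 1 gene, red for the 20 called higher and grey for the others, and black bars are medians of the 62. The medians of the wild-type fish lie between -0.88 and -0.65 and those of the mutants at 1.21, 0.26 and 1.03, with mutant replicate 2 the lowest.

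Among the mutants, 5 of 6 rod markers were lowest in replicate 1 and highest in replicate 2, the reverse of most members. The exception was the rod transcription factor gene nr2e3, at 6784, 2324 and 1685 in wild type and at 5759, 4230.0 and 4754 in the mutants, with mutant replicate 1 the highest and replicate 2 the lowest of the mutants (log2 change 0.71). On the same scale the median of 6 tested rod genes stood at -1.40, 0.22 and -0.30 in mutant replicates 1, 2 and 3, and at 0.24, 0.60 and 0.79 in wild type. The rod opsin gene rho was at 1420940.0, 1983180.0 and 2349080.0 in wild type and at 410623, 1490410.0 and 1229500.0 in the mutants. The part of rod RNA in the mitotic result was not tested. When mutant replicate 2 was left out, the median log2 change of the members was 1.89 and 18 were called, 15 of them among the 20. Over all genes tested, that fit called 98 higher (0.872%) and 149 lower.

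DNA replication genes, which act before mitosis in the same cycle, were mostly positive too. Their list was also chosen with earlier results of these data known, so it is not independent support. Of 56 tested, 52 had a positive change, with a median of 0.84, 2 were called higher and 0 lower, and 34 were higher and 0 lower at an unadjusted p under 0.05. By edgeR 2 and by DESeq2 25 were higher, and 0 were lower by either. Over all genes tested, limma called 0.829% higher and 1.78% lower, with 9.38% and 11.6% at an unadjusted p under 0.05. The shares of all genes were 0.82% and 1.62% by edgeR and 4.14% and 6.65% by DESeq2. The called genes were rrm2, for the small subunit of ribonucleotide reductase, and mcm2 of the replicative helicase. The gene rrm2 was at 238, 268 and 189.5 in wild type and at 1284, 559 and 966 in the mutants (log2 change 1.94, adjusted p = 0.0388), and mcm2 at 173, 155 and 170.0 in wild type and at 792, 357 and 531 in the mutants (log2 change 1.67, adjusted p = 0.0408). In both, all mutants were above all wild types. Both calls were lost without any one fish but mutant replicate 2, with adjusted p of up to 0.178.

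A further list of mitotic genes outside the naming rule held 89 tested genes. It too was chosen with earlier results of these data known. Of these, 5 were called higher and 0 lower, with a median log2 change of 0.21, 30 were higher and 7 lower at an unadjusted p under 0.05, and 60 were positive. By edgeR 6 were higher and 0 lower, and by DESeq2 26 and 3. Over all genes tested, limma called 0.829% higher and 1.78% lower, edgeR 0.82% and 1.62%, and DESeq2 4.14% and 6.65%. At an unadjusted p under 0.05 in limma the shares of all genes were 9.38% higher and 11.6% lower. Its classes differed in their medians. Other kinetochore and checkpoint genes had a median of 1.20 over 10 genes, with 0 called, and kinases and phosphatases of mitotic entry 0.96 over 14. Spindle and centrosome genes stood at 0.91 over 21. Genes of cohesin and chromatid separation, top2a among them, had 0.11 over 11. The class of transcription factors of mitotic genes had 0.04 over 16 and included rb1, rbl1 and dek. The class of the anaphase-promoting complex had -0.07 over 17 and included cdc14aa, cdc14ab and fbxo5.

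The 5 called genes of that list acted at different points of the cycle. Topoisomerase top2a, which disentangles sister chromatids, was at 119, 93.8 and 73.5 in wild type and at 670.2, 256 and 586 in the mutants (log2 change 2.30, adjusted p = 0.0408). The microtubule genes nusap1 and stmn1a had log2 changes of 1.92 and 1.93 (adjusted p = 0.0388 and 0.0388). The inhibitory kinase wee1, which holds Cdk1 back, rose as well, at 151, 209.7 and 209 in wild type and at 372, 377 and 355 in the mutants (log2 change 0.97, adjusted p = 0.0408). So did tfdp2, a partner of E2F factors (2.15-fold, adjusted p = 0.0462). These 5 calls were lost without wild-type replicate 2 or 3 or without mutant replicate 1 or 3, with adjusted p of up to 0.20, that of tfdp2 also without wild-type replicate 1 (0.0577) and that of wee1 without mutant replicate 2 (0.0866).

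Among the 16 genes in the transcription factor class of that list tfdp2 was the called one, and 8 had a positive and 8 a negative change. In 4 of them all mutants lay above all wild types, and in 3 all lay below. Over all tested genes 13.3% lay above and 14.8% below in this way, so counts from 16 genes say little. The 3 below were e2f4, e2f5 and lin52, with log2 changes of -0.38, -0.99 and -0.18 (adjusted p = 0.207, 0.227 and 0.338). The gene foxm1, a forkhead activator of mitotic genes, was at 21.9, 12.7 and 23 in wild type and at 48.5, 23 and 31.3 in the mutants, with the lowest mutant level with the highest wild type (log2 change 0.78, adjusted p = 0.333). The Myb gene mybl2b was at 49, 32.4 and 24.1 in wild type and at 171, 69.1 and 138 in the mutants, without overlap, and missed the threshold (log2 change 1.77, adjusted p = 0.0783). The cyclin ccna2, partner of Cdk1 and Cdk2, was at 63.9, 85.7 and 62 in wild type and at 360.3, 140.2 and 343 in the mutants, also without overlap (log2 change 1.88, adjusted p = 0.0572). The augmin subunits haus1, haus3 and haus4, which branch spindle microtubules, had log2 changes of 2.74, 2.33 and 2.62 on few reads (adjusted p = 0.0537, 0.0581 and 0.0614). Of the same complex, haus5 had 1.46 (adjusted p = 0.0836), and haus6 overlapped between genotypes (log2 change 0.40, adjusted p = 0.439). For the anaphase-promoting complex, the activator fzr1a of cells outside mitosis was at 1785, 2084 and 1859.5 in wild type and at 1444, 1352 and 1454 in the mutants, below wild type in each mutant (log2 change -0.43, adjusted p = 0.0672).

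**Figure D4:**
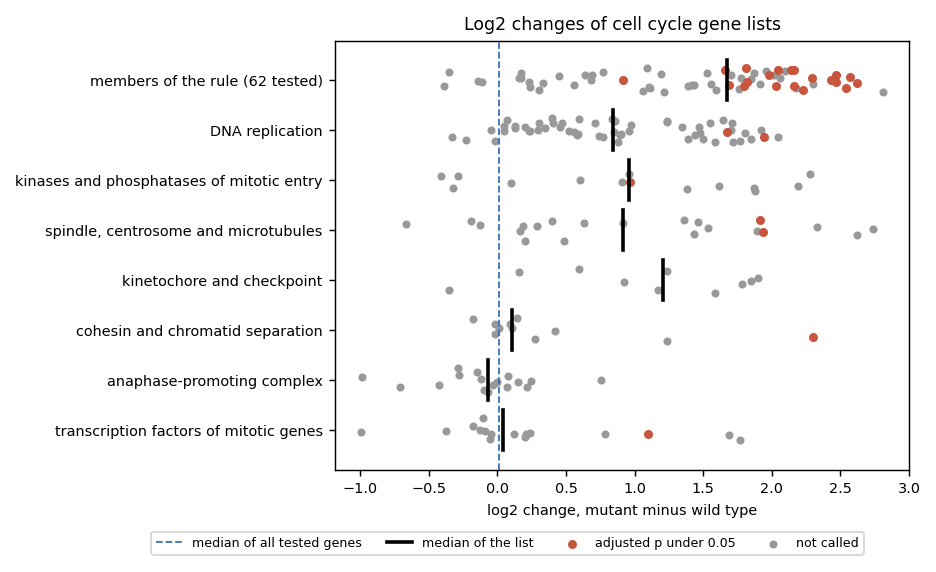
Log2 change of each tested gene, mutant minus wild type, for the 62 tested members, DNA replication genes and 6 classes of other mitotic genes; red points are genes at an adjusted p under 0.05, grey points were not called, and black bars are the medians of the lists. The dashed line is the median of all tested genes at 0.01; the bars of the members and of DNA replication lie at 1.67 and 0.84, and that of the anaphase-promoting complex at -0.07.

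Markers of cells that could divide were compared beside these genes. The marker lists too were chosen with earlier results of these data known, so their counts are not independent support. Of 17 markers of retinal progenitors and the ciliary margin, 16 were tested, and 4 were called higher and 0 lower, against 0.829% and 1.78% of all genes. Their median log2 change was 0.33, with 12 positive and 4 negative. At an unadjusted p under 0.05 in limma, 7 were higher and 1, rx2, was lower (log2 change -0.54), against 9.38% and 11.6% of all genes. Their summed level was 92782 to 189369 in wild type and 118186 to 170803 in the mutants. The genes neurod1 and rx1, which photoreceptors share, were large parts of that sum, with neurod1 at 40181, 29103 and 101758 in wild type and at 36779.7, 47414 and 81285 in the mutants and rx1 at 22155, 51601 and 51642 in wild type and at 33611, 34411 and 37565 in the mutants. The called ones were ccnd1, fabp11a, insm1a and ascl1a, and fabp11a was at 65.6, 173 and 94.2 in wild type and at 645, 406 and 649 in the mutants (log2 change 2.43, adjusted p = 0.0381). Without wild-type replicate 2 or mutant replicate 3 all 4 of these calls were lost, and without any one of the 6 fish the adjusted p of ccnd1, insm1a, fabp11a and ascl1a was at most 0.103, 0.101, 0.178 and 0.180. Those of fabp11a and ascl1a were also lost without wild-type replicate 3 or mutant replicate 1, that of insm1a without mutant replicate 1, and that of ascl1a without wild-type replicate 1 or mutant replicate 2. The 11 Müller glia markers summed to 306973 to 313733 in wild type and 326691 to 351432 in the mutants, without overlap. The gene glula was a large part of that sum and itself overlapped, at 161694, 148958 and 154478 in wild type and at 160950, 195793 and 171662 in the mutants. In 2 of the 11 each mutant lay above each wild type, which 13.3% of all tested genes did, and their median log2 change was 0.11. Of the 11, 1, crabp1a, was called higher. That call was lost without wild-type replicate 2 or 3 or mutant replicate 1 or 3 (adjusted p up to 0.148). Microglia and leukocyte markers summed to 4514 to 10415 and 4989 to 6353, with 0 of 8 tested called by limma, edgeR or DESeq2 and 1 at an unadjusted p under 0.05. Sums for pigment epithelium, red blood cells, vessels, lens and myelin overlapped between genotypes. The part of each cell type in the mitotic result was not tested.

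Some members share their place in the genome with another gene. In the RefSeq annotation of assembly GRCz12tu, 17 of the 65 overlap a further gene, among them cdk1, mki67, ndc80, spc25, smc4 and kif20a. The strand setting of the counting is not given in the sources used here, so reads of overlapping genes may not be told apart.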

How the data were processed

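RNA of whole retinas from 6 fish, 3 of each genotype, was sequenced as paired reads of 150 bp. Per the labels' protocols, 10 ng of RNA went into a SMARTer kit with 12 cycles of cDNA amplification, and libraries were amplified for 15 cycles. The submitters' processing notes name R 4.1.3, DESeq2 1.34.0, HTSeq 0.9.1, STAR 2.7.2b and Trim Galore 0.6.1 with build danRer10. The strand setting was not given in the sources used here.

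Signal values, as deposited by the authors, are read counts of each gene over one size factor a library, since 100% of values were whole multiples of 1 step within 0.01 reads. Whole reads were recovered by that step for the count tests. The authors also deposited a log2 fold change and an adjusted p-value per gene, which were only counted.

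Members were taken by name and given roles by hand; members, lists and named genes were chosen with earlier results of these data known. The test was limma 3.58.1 in R 4.3.3 (trend, robust) on log2(value + 1), with genotype as the term, on 11335 genes that reached 10 in 3 or more libraries, with Benjamini-Hochberg adjustment over them and a threshold of 0.05. Alternatives were edgeR 4.0.16 and DESeq2 1.42.0 on reads, TMM and library-total scaling, no filter, pseudocounts of 0.1 and 10, limma without trend, a replicate block and each library left out. Tools were checked on simulated counts. Named were all called members, those with the 4 smallest p in each role, and up to 4 genes of each further list, with some named in addition after their values were seen. Most of these members were given with the value of each fish, but anln and ect2 only with log2 changes and cenph with reads. Libraries of a genotype were no copies of each other (chi-square per degree of freedom 58.7 or more). PCR copies are not independent molecules, and replicates were separate fish. RefSeq names matched 64 members as current symbols and 1 as a synonym.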

Additional observations from a re-analysis of the deposited data

How the results depend on the processing

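The main counts were 20 members higher and 0 lower, 94 genes higher and 202 lower over all, and a median member change of 1.67. With library totals as the scaling, 41 members and 1995 of all genes were higher and 141 lower, since that scaling moved the median of all genes to 0.36; higher genes were then 93.4% of all calls in place of 31.8%. Relative to that shift the members' median was 2.02 against 0.36. With DESeq2, 40 members were higher, and 469 genes higher and 753 lower over all. Limma without trend called 1 member, ncapd3, and 8 genes higher and 22 lower. With a pseudocount of 10 the median member change was 1.30, and 22 members were called higher, with 100 genes higher and 212 lower over all. With 1 library left out, members called higher ranged from 0 to 18, all genes higher from 4 to 130 and lower from 11 to 236, and the members' median from 1.44 to 1.89. Leaving out wild-type replicate 1 gave 15 members and mutant replicate 2 gave 18, and each of the other 4 fish gave 0. Over all genes, the fits without wild-type replicate 1 and without mutant replicate 2 called 130 and 98 higher. No member was called lower by limma, edgeR or DESeq2 under any setting, and at an unadjusted p under 0.05 at most 1 was. The cause of these differences was not tested, except that fewer fish enter a fit with a library left out. The log2 change turned sign for ccnb3 and zw10 with library totals (0.23 and 0.21). With 1 library left out it ranged from -0.57 to 0.58 for ccnb3, from -0.024 to 0.57 for hmmr and from -1.39 to 0.42 for pttg1ipb, none of which was called in any of these fits. TMM scaling, no filter, a pseudocount of 0.1 and edgeR called 18 to 20 members. The labels do not say whether replicate numbers pair the fish. Deviations of same-numbered fish correlated at 0.19, -0.14 and 0.23 across genes, and those of differently numbered fish at -0.34 to 0.17. So few values cannot settle whether the fish were paired. With a replicate block 14 members were called, 13 of them among the 20, and 81 genes higher and 208 lower over all. Some members rested on few reads, with cenph at 2 to 16 reads and setd8b at 5 to 13 in wild type, and the effect of depth was not tested.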
